A study of Caenorhabditis elegans with 95 samples.

Results

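The mRNA of 6 regulators of the mitochondrial unfolded protein response (UPRmt) of *Caenorhabditis elegans* was followed, namely *atfs-1*, *dve-1*, *ubl-5*, *haf-1*, *lin-65* and *met-2*. They were chosen by symbol as known regulators, with earlier results of these data known. All 6 were among the 46904 genes of the count table. Their levels are given in recombinant intercross advanced inbred lines (RIAILs), in the parental strain CB4856 and in N2, by library series, and in relation to *hsp-6*, the mitochondrial HSP70 gene that is the common readout of the response.

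The UPRmt is a nuclear transcription programme that raises mitochondrial chaperones and proteases when protein folding or translation in mitochondria is disturbed. HAF-1, an ABC transporter of the mitochondrial inner membrane, exports peptides cut by the matrix protease CLPP-1. ATFS-1 is a bZIP transcription factor that is imported into healthy mitochondria and enters the nucleus when import is weakened, where it acts on chaperone genes. UBL-5, a ubiquitin-like protein, acts with the homeodomain protein DVE-1, and the histone H3K9 methyltransferase MET-2 with its nuclear partner LIN-65 reshapes chromatin so that DVE-1 and ATFS-1 can act. ATFS-1 is thus known to be controlled largely by import and location in the cell, which counts of mRNA do not measure.

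RNA was sequenced from 85 RIAILs with 1 library each, from CB4856 (6 libraries) and from N2 (4 libraries). Every library, those of CB4856 and N2 (together called the parental strains) included, came from worms on *E. coli* HT115 with doxycycline (Dox) at 15 μg/mL, an antibiotic that blocks mitochondrial translation. Untreated worms were not analysed here, so no value below is a response to Dox. The RIAILs descend from CB4856 and QX1430, a strain of N2 background with engineered deletions, which is not the strain of the N2 libraries. The methods place the harvest at the L4 larval stage, whereas the growth text in the labels goes on to plates with 5-fluoro-2'-deoxyuridine for the lifespan assays. The labels leave unsaid whether the libraries of CB4856 or of N2 were grown as separate cultures. The p-values therefore cover only the spread between these libraries, and how much of it is technical was not tested. That spread exceeded counting error, with a chi-square per degree of freedom of 14.9 to 228 between libraries of the same parental strain.

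Totals ran from 22121202 to 23879871 counts per library. The letter of the library name, A to G, is called the library series here, since the labels do not say what it stands for. Each series held 7 to 19 RIAILs, the 6 CB4856 libraries stood in 6 different series, and both parental strains were present only in series B, F and G. Stage and germline genes differed widely between libraries. The summed level of 16 oocyte genes was 259 to 4060 CPM (counts scaled to library size) in RIAILs, 526 to 1390 CPM in CB4856 and 456 to 3510 CPM in N2, where replicate 1 had the 456 and the other libraries 2610 or more. The sums of 18 molting genes were 1150 to 18500 CPM in RIAILs, 2200 to 12100 CPM in CB4856 and 2260 to 11300 CPM in N2, and no gene of either list had a median count of 0. In QX501, a RIAIL of series G, 7 male genes summed to 155 CPM, against a median of 7.23 CPM over RIAILs, and the comparison of library series and the relations to *hsp-6* and *hsp-60* were also computed without it. In RNA of whole worms, fewer cells of a type and less RNA per cell cannot be told apart.

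By mRNA level the 6 regulators spanned a wide range. Per length, as TPM computed from the counts and the annotated exons, the order over RIAILs was *atfs-1* with 48.4 ± 6.28 TPM, *ubl-5* with 34.7 ± 4.56, *dve-1* with 20.1 ± 4.36, *lin-65* with 8.47 ± 1.35, *met-2* with 8.20 ± 1.56 and *haf-1* with 2.13 ± 0.423 TPM (SD, n = 85). The neighbours *lin-65* and *met-2* did not differ beyond their spread, with *lin-65* above *met-2* in 54 of 85 RIAILs, 5 of 6 CB4856 libraries and 2 of 4 N2 libraries. All other neighbours kept their order in 79 or more RIAILs. The median TPM of *atfs-1* over all libraries exceeded that of 88.6% of 19901 protein-coding genes and that of *haf-1* only 38.1%, while *hsp-6* reached 287 TPM and *hsp-60*, the other mitochondrial chaperone gene, 181 TPM.

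The comparison of CB4856 with N2 asked whether these strains differ in the mRNA of the regulators under Dox, with N2 standing for the background of QX1430 and not for that strain itself. None of the 6 differed between CB4856 and N2 (edgeR, 0 at an adjusted p under 0.05, which 16.1% of 15718 genes passed, and 0 at an unadjusted p under 0.05, which 30.2% passed). The count was 0 with limma-voom (14.8% of genes passed) and 0 with DESeq2 (22.3%) as well. The chaperone genes did. *hsp-6* averaged 734 ± 95.6 CPM in CB4856 and 507 ± 94.2 CPM in N2 (SD, n = 6 and 4), a log2 fold change of 0.59 (SE 0.13, adjusted p = 0.0112). *hsp-60* averaged 407 ± 45.4 CPM in CB4856 and 277 ± 81.2 CPM in N2 (log2 fold change 0.61, SE 0.17, adjusted p = 0.0295). Neither chaperone gene overlapped between the libraries of the strains, as was the case for 13.7% of genes, whereas all 6 regulators did.

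*haf-1*, the peptide exporter, lies on chromosome IV at 17376427 to 17379310 of WBcel235, on the plus strand. It had 3.94, 4.72, 4.46, 3.79, 4.47 and 3.93 CPM in the CB4856 libraries (series A, B and C, then E, F and G), against 4.93, 2.24, 3.1 and 2.99 CPM in the N2 libraries of series B, D, F and G. The CB4856 libraries lay close together, and N2 replicate 1, of series B, was above all of them while the remaining N2 libraries were below all of them. The log2 fold change was 0.39 (SE 0.23, 95% interval -0.11 to 0.89, adjusted p = 0.286). Without N2 replicate 1 it was 0.68 (adjusted p = 0.0135), a call that rests on the choice of libraries. That library also had the lowest oocyte sum of the N2 group, and the part of stage in this value was not tested. *haf-1* was the most thinly counted of the 6, with a median of 92 reads in RIAILs, and 64 bp of its end are shared with *C30H6.9*, a gene on the opposite strand with a median of 412 reads. No source used here gives the strand setting of the counting, so reads in the shared stretch may be assigned to either gene. Over the RIAILs *haf-1* and *C30H6.9* had r = -0.168 (permutation p = 0.124, adjusted p = 0.212, Spearman's rho = -0.128 with permutation p = 0.242), a relation computed after the overlap was seen.

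*atfs-1*, on chromosome V at 14193663 to 14197700 (plus strand), is the transcription factor of the response. It had 102, 90.8, 90.7, 96.3, 80.2 and 63.1 CPM in CB4856, against 76.7, 73.3, 87.8 and 78.7 CPM in N2, in the same order of series. The CB4856 libraries enclosed all N2 libraries, since the library of series G was the lowest of both strains. The log2 fold change was 0.19 (SE 0.13, 95% interval -0.09 to 0.47, adjusted p = 0.36). Within the series that held both strains, *atfs-1* was higher in CB4856 in series B and lower in CB4856 in series F and G. Its log2 fold change was -0.03 when the letter was fitted as a block (adjusted p = 0.944). By contrast *hsp-6* was higher in CB4856 in all of them, with 758 against 378 CPM in N2 in series B, 703 against 597 CPM in N2 in series F and 623 against 501 CPM in N2 in series G.

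*ubl-5* is a short gene on chromosome I (5607826 to 5608841, minus strand). Its levels were 8.92, 9.43, 9.28, 8.22, 11.9 and 10.9 CPM in CB4856, against 9.66, 11.1, 11.2 and 10.7 CPM in N2, in the same order of series. The CB4856 libraries of series A, B, C and E lay below all N2 libraries, that of series G lay among them and that of series F above them. Its log2 fold change was -0.07 (SE 0.13, 95% interval -0.36 to 0.22, adjusted p = 0.772) and 0.06 when the letter was fitted as a block (adjusted p = 0.908). *dve-1*, the partner of UBL-5 in the nucleus, lies on chromosome X (427035 to 433812, minus strand) and had 71.9, 72.6, 50.9, 83.6, 60.9 and 53.1 CPM in CB4856, against 47.3, 49.2, 54.2 and 83.3 CPM in N2. N2 replicate 4, of series G, was far above the other N2 libraries and level with the highest CB4856 library. Its molting score (mean z of molting genes) was -1.66, the lowest of the parental libraries, and the part of stage in this value was not tested. For *dve-1* the log2 fold change was 0.21 (SE 0.19, 95% interval -0.20 to 0.63, adjusted p = 0.493), and it was 0.42 (adjusted p = 0.125) without that library.

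*met-2*, on chromosome III at 8375300 to 8380848 (plus strand), had 39.8, 29.3, 24, 33.5, 27.9 and 27.5 CPM in CB4856, against 27.5, 38.8, 40.1 and 38.1 CPM in N2. Apart from replicate 1 the N2 libraries were high, and only the CB4856 library of series A reached them. The log2 fold change was -0.20 (SE 0.14, 95% interval -0.51 to 0.12, adjusted p = 0.403). *lin-65*, on chromosome I at 1755329 to 1766400 (plus strand), had 20, 21.4, 22, 24.7, 21.9 and 24.8 CPM in CB4856, against 19.2, 25.0, 24.9 and 18.6 CPM in N2. All CB4856 libraries of *lin-65* lay inside the range of N2. Its log2 fold change was 0.09 (SE 0.11, 95% interval -0.16 to 0.34, adjusted p = 0.64).

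**Figure D1:**
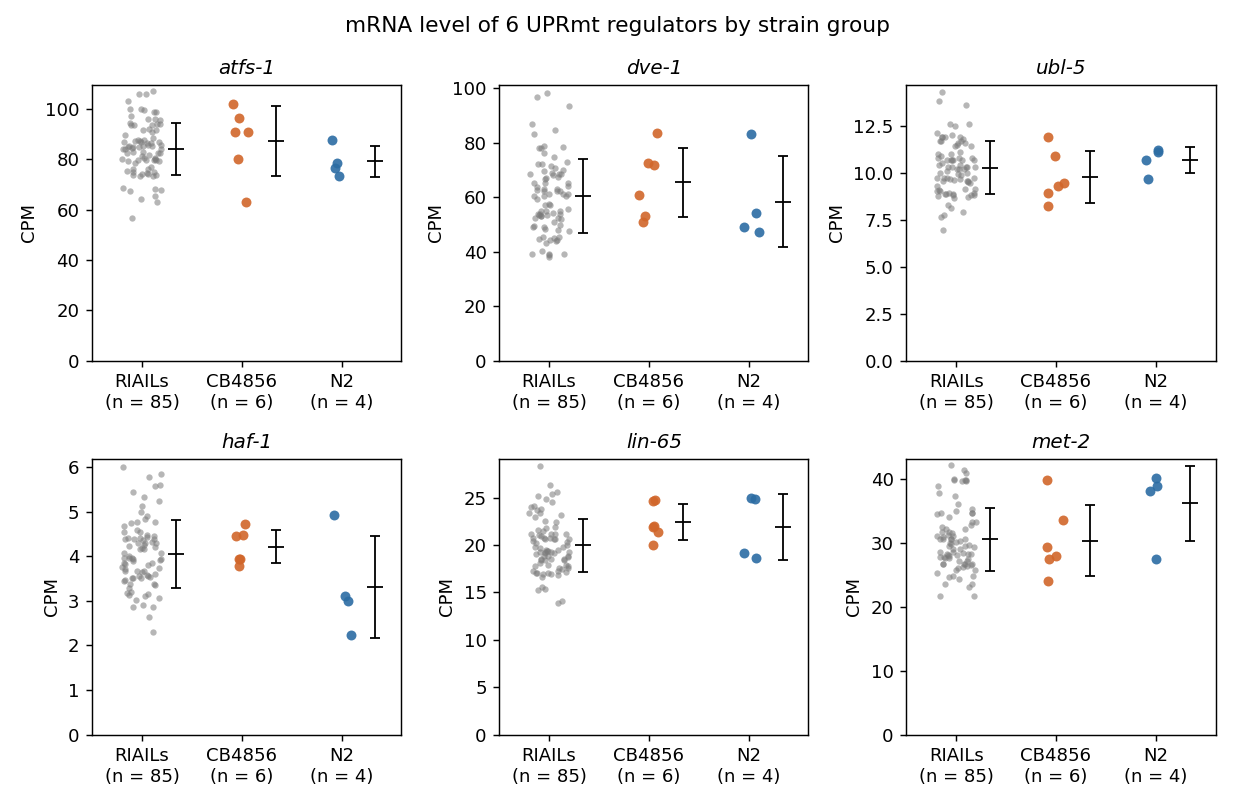
mRNA level in CPM (vertical axis, from 0) of the 6 regulators in RIAILs, CB4856 and N2, with 1 point per library and the mean ± SD at the right of each group. The groups overlap in every panel, as for *atfs-1* with 56.8 to 107 CPM in RIAILs, 63.1 to 102 CPM in CB4856 and 73.3 to 87.8 CPM in N2.

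Whether the lines differ from each other in these genes was asked by testing the 85 strain coefficients against the spread among libraries of the same parental strain. None of the 6 regulators passed (edgeR, 0 at an adjusted p under 0.05, which 5.52% of 17058 genes passed, and 0 at an unadjusted p under 0.05, which 17% passed). *atfs-1* had a lowest, median and highest level of 56.8, 84.5 and 107 CPM in the RIAILs, from QX572 to QX511, and 2 of 85 lines lay below and 4 above the range of all parental libraries. Its SD on the log2 scale was 0.18 among RIAILs, against 0.21 among libraries within a parental strain (adjusted p = 0.86). *dve-1* ran over 38.2, 60.6 and 98.3 CPM, a ratio of highest to lowest of 2.57, with an SD of 0.32 among RIAILs and 0.32 within parental strains (adjusted p = 0.685). For both genes the SD of the lines was no larger than that of repeated libraries of the same strain.

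For the remaining regulators the SD among lines lay on either side of that of repeated libraries. *ubl-5* had 6.97, 10.2 and 14.3 CPM as its lowest, median and highest level, with an SD of 0.20 among RIAILs and 0.16 within parental strains (log2 scale, adjusted p = 0.779). *haf-1* had 2.30, 3.96 and 6 CPM (SD 0.27 among RIAILs and 0.30 within parental strains, adjusted p = 0.9), and counting error alone is 10.4% at its median count. *lin-65* had 13.9, 19.5 and 28.4 CPM (SD 0.20 and 0.17, adjusted p = 0.676) and *met-2* had 21.7, 29.6 and 42.1 CPM (SD 0.23 and 0.25, adjusted p = 0.814). For *lin-65*, 29 of 85 RIAILs were below the lowest parental library, the largest count on one side among the 6, and 5 above the highest. For *haf-1*, 10 were above the highest and 0 below the lowest. *hsp-6* itself, with 452, 645 and 913 CPM, did not pass either (SD 0.24 among RIAILs and 0.23 within parental strains, adjusted p = 0.652). With 1 library per line, strain and library cannot be told apart within a line, and the spread used for the test rests on 10 libraries. On simulated counts the test recovered 78% of genes given an SD of 0.5 among lines on the log2 scale. Smaller SDs, as seen for the regulators, were not simulated, so that the lack of a call does not show the lines to be alike.

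Library series differed for *lin-65* and *atfs-1* among the 85 RIAILs, in a test that 61.4% of 16686 genes passed. *lin-65* averaged 17.9 ± 2.58 CPM in series A, 19.9 ± 2.09 in B, 18.4 ± 2.22 in C, 19.1 ± 2.43 in D, 23 ± 3.02 in E, 21.3 ± 2.55 in F and 18.9 ± 1.96 in G (SD, adjusted p = 0.000378). Series E was the highest and series A the lowest, and their lines overlapped only between 19.4 and 21.5 CPM. *atfs-1* averaged 93.5 ± 8.80 CPM in series A, 85.3 ± 4.97 in B, 83.4 ± 9.65 in C, 83.2 ± 10.3 in D, 83 ± 10.3 in E, 89.0 ± 8.55 in F and 75 ± 10.2 in G (SD, adjusted p = 0.00519). Here series A stood highest and series G lowest, and the CB4856 libraries had the same extremes, with 102 CPM in series A and 63.1 CPM in series G. *dve-1* (adjusted p = 0.238), *ubl-5* (0.17), *haf-1* (0.0659) and *met-2* (0.0676) did not pass.

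*hsp-6* (adjusted p = 0.00141) and *hsp-60* (adjusted p = 0.00278) also differed by series, with their highest means in series E, at 757 ± 117 and 444 ± 88.3 CPM, and their lowest in series C, at 541 ± 52.5 and 279 ± 64.3 CPM. The order of series was therefore not that of *atfs-1*, and at its top it was that of *lin-65*. Stage moved with the series as well. The molting score, the mean z score of the molting genes, averaged from -0.79 in series A to 0.70 in series C, and the oocyte score from -0.81 in series B to 0.61 in series D, and their part in the differences between series was not tested beyond the fit with covariates. With these scores and the sperm score as covariates *haf-1* (adjusted p = 0.0338) and *met-2* (adjusted p = 0.0326) passed too, and without QX501 *met-2* did (adjusted p = 0.0392).

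**Figure D2:**
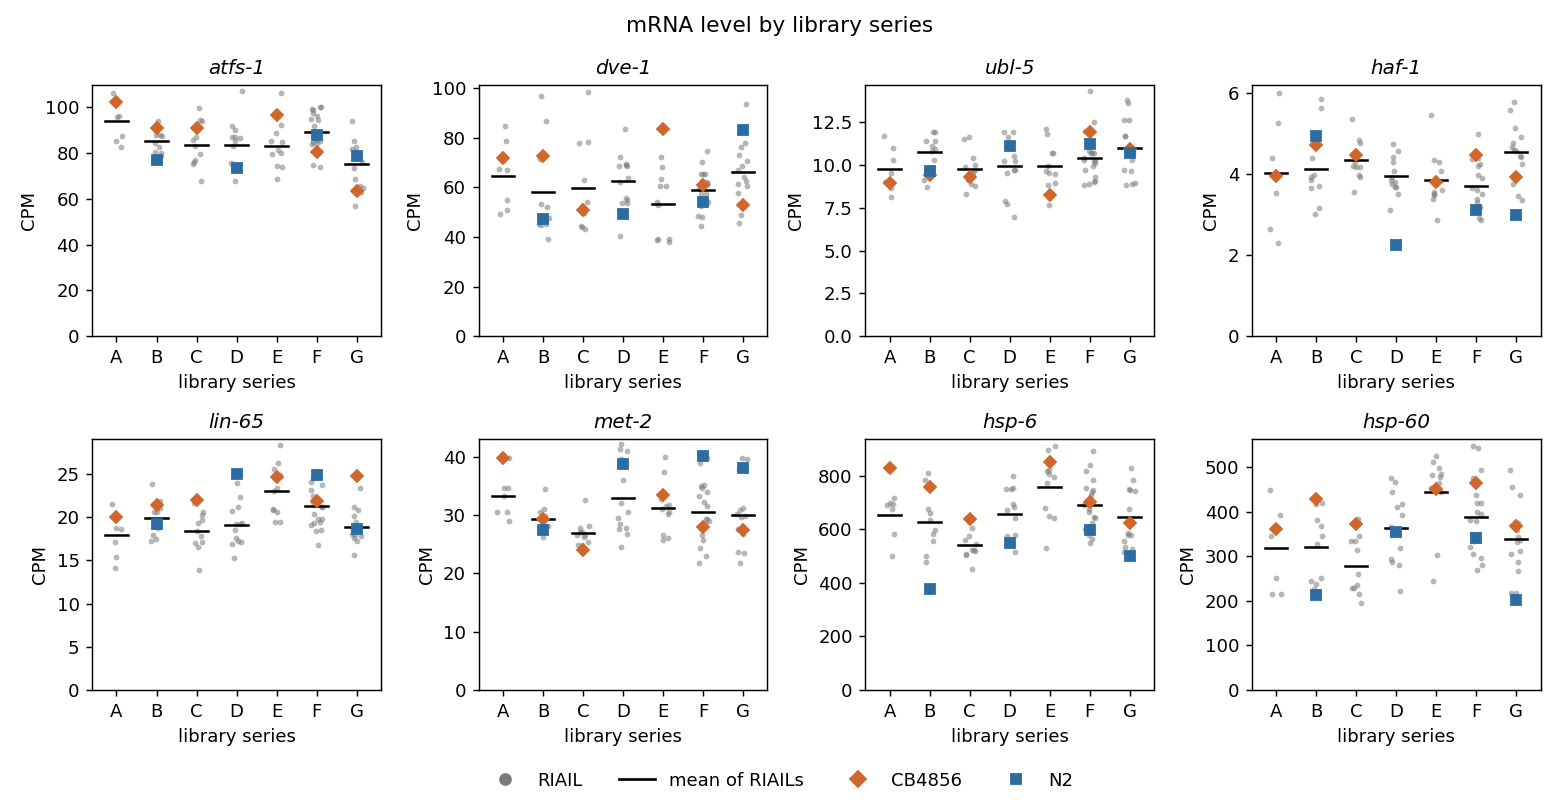
mRNA level in CPM (vertical axes, from 0) by library series A to G (horizontal axes) for the 6 regulators, *hsp-6* and *hsp-60*, with grey points for RIAILs, black lines for their means, orange diamonds for CB4856 and blue squares for N2. *lin-65* is highest in series E (23 CPM) and *atfs-1* lowest in series G (75 CPM).

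The relation to *hsp-6* was measured as Pearson's r and Spearman's rho of log2 CPM over the 85 RIAILs, with 100000 permutations and adjustment over 17057 genes. Of the 6 regulators, *atfs-1* alone passed, a share near the 14.1% of all genes that did. Its r was 0.356 (permutation p = 0.00064, adjusted p = 0.0091) and its rho 0.333 (permutation p = 0.00204, adjusted p = 0.0215). Lines with more *atfs-1* mRNA had more *hsp-6* mRNA, and r was above that of 96.6% of genes. Without QX543 and QX575, the lines farthest from the median of *hsp-6*, r was 0.354 (adjusted p = 0.017). QX575, with the highest *hsp-6* at 913 CPM, had 85.1 CPM of *atfs-1*, close to the median, whereas QX569, with the next highest *hsp-6* at 896 CPM, had 106 CPM. The shared variance was 12.7%, so most of the spread of *hsp-6* was not that of *atfs-1*.

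Within library series *atfs-1* and *hsp-6* had r = 0.164 in A, -0.563 in B, 0.391 in C, 0.353 in D, 0.761 in E, 0.585 in F and 0.604 in G, over 7 to 19 lines each. Series B thus ran against the other 6 series. Levels centred within series gave r = 0.434 (adjusted p = 0.00322), and levels regressed on series and on the molting, sperm and oocyte scores gave 0.414 (adjusted p = 0.00465, where 17.7% of genes passed). Leaving out each series in turn, a step added after the data were seen, r ran from 0.282 without series F to 0.422 without series B.

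The other regulators did not pass. *ubl-5* was the only one with a negative r, at -0.243 (permutation p = 0.0249, adjusted p = 0.115, Spearman's rho = -0.275 with permutation p = 0.0115), negative in 5 of 7 series. After regression on series and scores its r was -0.357 (adjusted p = 0.0146), past the threshold. QX595 illustrates the sign, with the highest *ubl-5* of all lines at 14.3 CPM and 550 CPM of *hsp-6*, but QX520, with the lowest *ubl-5* at 6.97 CPM, had only 515 CPM of *hsp-6*. *lin-65* had r = 0.211 (permutation p = 0.0532, adjusted p = 0.192, Spearman's rho = 0.172 with permutation p = 0.117), yet within series it was positive in only 3 of 7, and centred within series it was -0.037 (adjusted p = 0.89). Regressed on the 3 scores alone *lin-65* had r = 0.289 (adjusted p = 0.0385). On series and scores together its r was 0.145 (adjusted p = 0.374), so that its size and sign varied with the adjustment.

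*met-2* had r = 0.154 with *hsp-6* (permutation p = 0.158, adjusted p = 0.372, Spearman's rho = 0.179 with permutation p = 0.102), and *dve-1* had 0.126 (permutation p = 0.249, adjusted p = 0.478, Spearman's rho = 0.126 with permutation p = 0.248). *haf-1* had 0.049 (permutation p = 0.66, adjusted p = 0.804, Spearman's rho = 0.053 with permutation p = 0.634). Their r without QX543 and QX575 was 0.137, 0.077 and 0.058. For *dve-1* the r within series ran from -0.204 in series A (7 lines) to 0.752 in series E (11 lines). A difference between series was not tested.

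**Figure D3:**
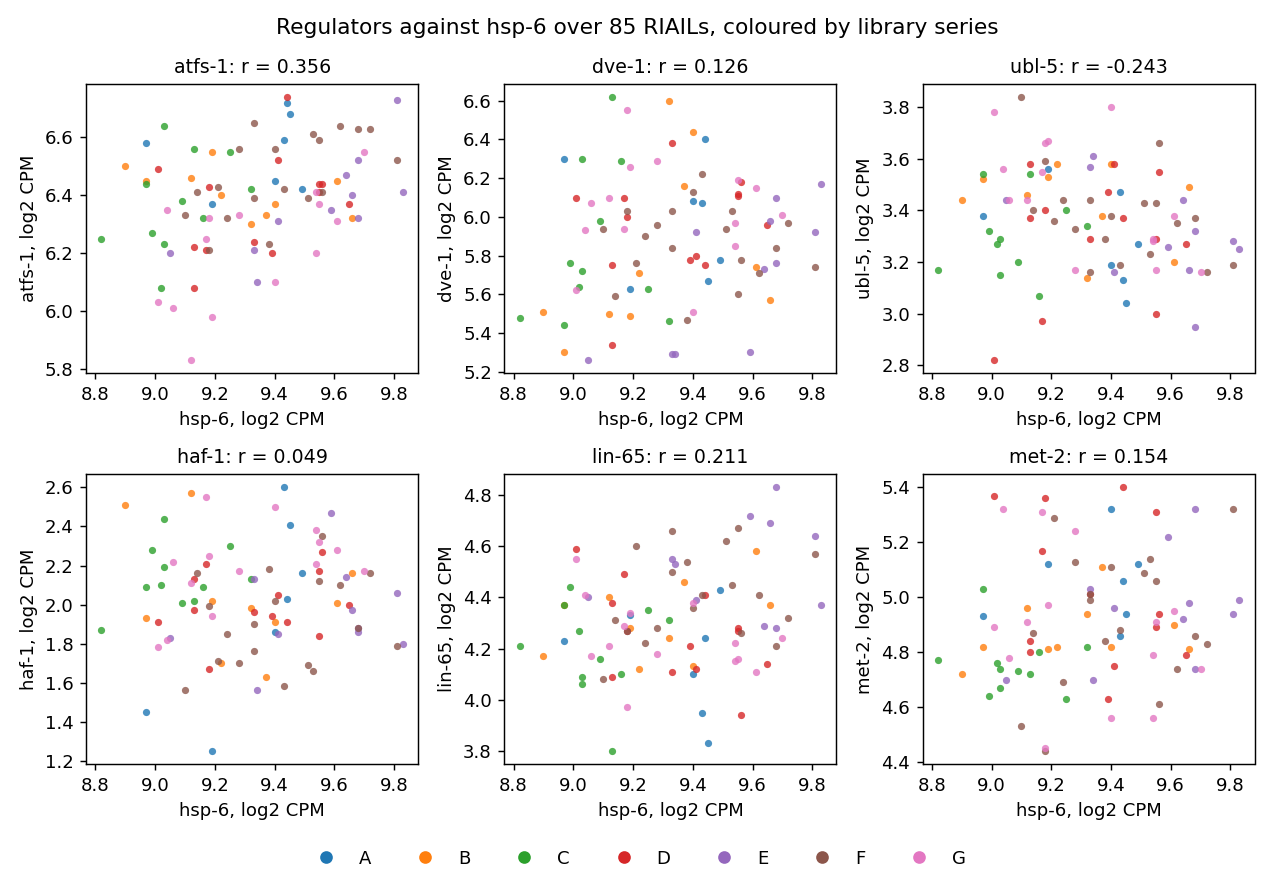
Each regulator (vertical axes, log2 CPM) against *hsp-6* (horizontal axes, log2 CPM) over 85 RIAILs, 1 point per line and coloured by library series, with Pearson's r in the title of each panel. The cloud of *atfs-1* rises with *hsp-6* (r = 0.356), and that of *ubl-5* slopes down (r = -0.243, adjusted p = 0.115).

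The relation was also measured over the 6 CB4856 libraries, a single genotype with each library from another series, a step added after the data were seen. In the order of series above, *hsp-6* had 828, 758, 638, 851, 703 and 623 CPM. *dve-1* followed it with r = 0.963 (exact permutation p = 0.00972 over 720 orders, Spearman's rho = 0.886 with exact permutation p = 0.0333), and *met-2* with r = 0.854 (exact permutation p = 0.0292, Spearman's rho = 0.886 with exact permutation p = 0.0333). *atfs-1* had r = 0.757 (exact permutation p = 0.0667, Spearman's rho = 0.886 with exact permutation p = 0.0333). Adjusted over all genes these p-values were 0.163 for *dve-1*, 0.169 for *met-2* and 0.23 for *atfs-1*. Of 17057 genes 24.4% had an exact permutation p under 0.05 here and 0 passed after adjustment, so that this test called no gene at all. Without the CB4856 libraries of series G and E, the farthest from the median of *hsp-6*, r was 0.936 for *dve-1*, 0.955 for *met-2* and 0.597 for *atfs-1*. *ubl-5* (r = -0.64), *haf-1* (-0.331) and *lin-65* (-0.247) were on the negative side, with exact permutation p-values of 0.181, 0.485 and 0.575. Without the same libraries their r was -0.306 for *ubl-5*, -0.543 for *haf-1* and -0.898 for *lin-65*. The CB4856 libraries of series A and E, which had the most *hsp-6*, also had the lowest molting scores of that strain, at -1.04 and -0.74, and the part of stage in these values was not tested.

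With *hsp-60* none of the 6 regulators passed (0 at an adjusted p under 0.05 and 1 at an unadjusted p under 0.05, where 7.97% of 17057 genes passed after adjustment). *atfs-1* came nearest with r = 0.254 (permutation p = 0.0192, adjusted p = 0.126, Spearman's rho = 0.227 with permutation p = 0.037) and was positive in 6 of 7 series, series B again being the exception. Regressed on the 3 scores it had r = 0.352 (adjusted p = 0.0144), and on series and scores 0.391 (adjusted p = 0.0398, where 1.58% of genes passed). The other regulators had r between -0.05 for *met-2* and 0.146 for *lin-65*. *hsp-60* and *hsp-6* were related to each other at r = 0.549 (permutation p = 1e-05, the smallest that 100000 permutations can give, adjusted p = 0.00159 among correlations with *hsp-60*, Spearman's rho = 0.557 with permutation p = 1e-05).

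Of a list of 10 target genes of the response, 6 were positively correlated with *atfs-1* over the RIAILs and none negatively, where 2.70% of all genes passed as positive, and the median r of the list was 0.343, against -0.029 over all genes. The 6 were *timm-23* (r = 0.556, adjusted p = 0.00262) and *timm-17B.1* (0.384, adjusted p = 0.013), subunits of the import machinery, *gfm-1* (0.403, adjusted p = 0.0075) and *tsfm-1* (0.339, adjusted p = 0.0384), elongation factors of mitochondrial translation, the mitochondrial DnaJ gene *dnj-10* (0.348, adjusted p = 0.0347) and *hsp-6* (adjusted p = 0.0287 among correlations with *atfs-1*). The mitochondrial proteases *lonp-1* (0.207), *spg-7* (0.181) and *ymel-1* (0.252) did not pass, nor did *hsp-60*. After regression on series and scores 9 of 10 were positive, where 1.12% of all genes were. The genes of this list were also related to each other, since all 9 others were positively correlated with *hsp-6*, so they are not 10 separate observations.

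The same list had 0 of 10 genes correlated with *dve-1*, 0 of 10 with *ubl-5* and 0 of 10 with *lin-65*. *haf-1* was positively correlated with *ymel-1*, the i-AAA protease (r = 0.439, adjusted p = 0.000376), and with *spg-7*, an m-AAA protease (r = 0.261, adjusted p = 0.041), while *met-2* was negatively correlated with *ymel-1* (r = -0.246, adjusted p = 0.0408) and *timm-17B.1* (r = -0.285, adjusted p = 0.0168). These calls were lost on regression on series and scores, where *haf-1* had r = 0.268 with *ymel-1* (adjusted p = 0.202) and 0.102 with *spg-7* (adjusted p = 0.71) and passed with 0 of 10. *met-2* then had r = 0.132 with *ymel-1* (adjusted p = 0.425) and -0.143 with *timm-17B.1* (adjusted p = 0.361), and it was positive with *gfm-1* (r = 0.326, adjusted p = 0.0176) and *spg-7* (r = 0.328, adjusted p = 0.0225). Before regression, shares of all genes passing in either direction were 48.5% for *dve-1*, 17.5% for *ubl-5*, 22.4% for *lin-65*, 41.7% for *haf-1* and 59% for *met-2*, all above the 5.89% of *atfs-1*. Whether the counts differ between regulators was not tested. In the parental comparison 6 of the 10 targets were higher in CB4856, where 8.79% of all genes were, and none was lower. Over the RIAILs 5 of the 10 were negatively and 0 positively correlated with the oocyte score, where 63% of all genes passed. That score averaged -0.21 in CB4856 and 1.1 in N2, and the part of stage in these strain differences was not tested.

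Stage and germline content separated the regulators. All but *atfs-1* passed with at least 1 of the molting, sperm and oocyte scores, where 63.7%, 58.5% and 63% of genes passed, so that a relation to stage was common and is no mark of these genes. *dve-1* had the strongest relation to molting, with r = -0.677 (permutation p = 1e-05, the smallest possible, adjusted p = 2.76e-05, Spearman's rho = -0.724 with permutation p = 1e-05), and it was negative in 7 of 7 series, between -0.949 and -0.060. Without QX510 and QX520, farthest from the median of the score, r was -0.695. Lines with high levels of cuticle and molting genes thus had low *dve-1*. *met-2* was positively related to the oocyte score (r = 0.711, permutation p = 1e-05, the smallest possible, adjusted p = 2.92e-05, Spearman's rho = 0.622 with permutation p = 1e-05), in 6 of 7 series, and was 0.679 without QX520 and QX591. The lines with the most *met-2*, QX511 at 42.1 CPM and QX520 at 41.4 CPM, were both of series D, the series with the highest mean oocyte score.

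*met-2* was also negatively related to molting (r = -0.551, permutation p = 1e-05, adjusted p = 2.76e-05, Spearman's rho = -0.529 with permutation p = 1e-05, and r = -0.498 without QX510 and QX520). *haf-1* ran the other way to *met-2*, with r = -0.472 for the oocyte score (permutation p = 3e-05, adjusted p = 8.03e-05, Spearman's rho = -0.467 with permutation p = 2e-05, and r = -0.464 without the 2 farthest lines) and -0.474 for the sperm score (permutation p = 2e-05, adjusted p = 6.7e-05, Spearman's rho = -0.485 with permutation p = 1e-05, and r = -0.494 without the 2 farthest lines). *lin-65* was positively related to the oocyte score (r = 0.321, permutation p = 0.00281, adjusted p = 0.00545, Spearman's rho = 0.272 with permutation p = 0.0121, and r = 0.265 without the 2 farthest lines) and *ubl-5* negatively (r = -0.285, permutation p = 0.00828, adjusted p = 0.0148, Spearman's rho = -0.223 with permutation p = 0.0411, and r = -0.229 without the 2 farthest lines). *atfs-1* had r = -0.225 with molting (permutation p = 0.0387, adjusted p = 0.0598, Spearman's rho = -0.21 with permutation p = 0.054, and r = -0.217 without the 2 farthest lines), -0.092 with sperm and 0.098 with oocyte genes. Within series its r with molting was negative in all but series B, running from -0.573 in series E to 0.826 in series B. With sperm genes it ran from -0.856 in series B to 0.343 in series E. The part of stage in the negative r of *atfs-1* with *hsp-6* in series B was not tested. *hsp-6* itself passed with none of the scores, its r lying between -0.112 for molting and 0.092 for sperm.

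**Figure D4:**
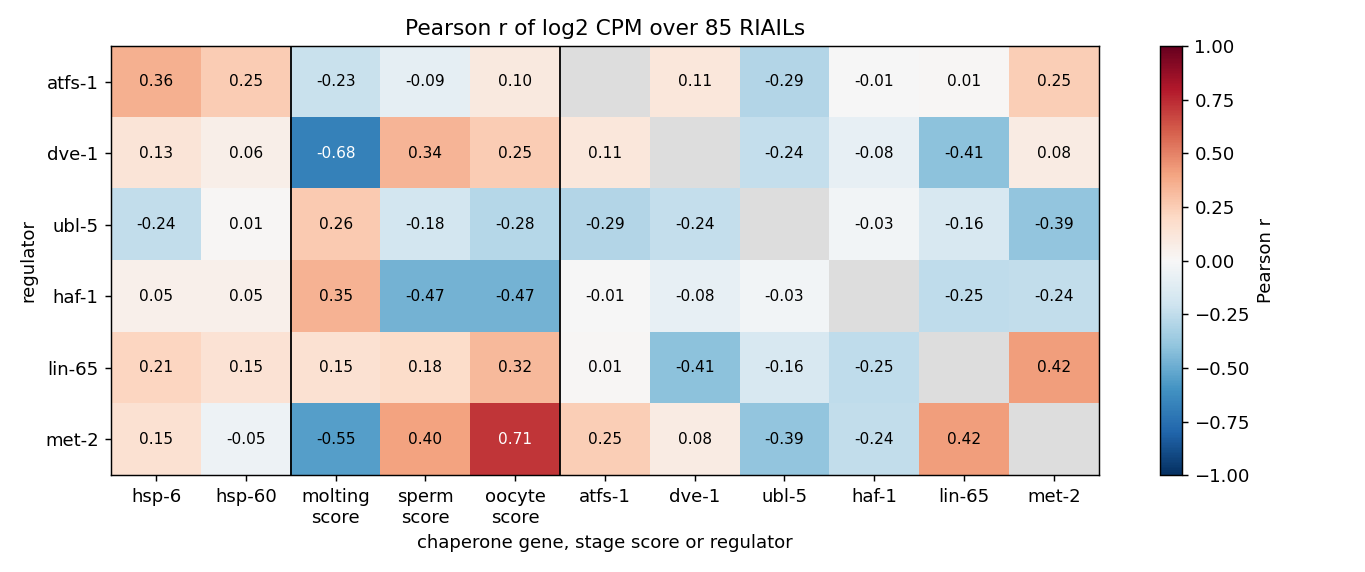
Pearson's r over 85 RIAILs between each regulator (rows) and *hsp-6*, *hsp-60*, the molting, sperm and oocyte scores and the other regulators (columns), on a colour scale from -1 (blue) to 1 (red), with a gene against itself left grey. The row of *atfs-1* is pale in the score columns (-0.225, -0.092 and 0.098) and warmest under *hsp-6* (0.356), while *dve-1* with molting (-0.677) and *met-2* with oocyte genes (0.711) are the deepest cells.

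Among the 15 pairs of regulators, 3 passed in both directions of adjustment, that is among the correlations of either member with all genes. Of all genes 5.89% passed with *atfs-1*, 48.5% with *dve-1*, 17.5% with *ubl-5*, 41.7% with *haf-1*, 22.4% with *lin-65* and 59% with *met-2*. Passing was thus common among all genes, and the count of 3 was not tested against these shares. *lin-65* and *met-2*, the chromatin partners, were positively related, with r = 0.416 (permutation p = 7e-05, adjusted p = 0.00114 for *lin-65* and 0.00016 for *met-2*, Spearman's rho = 0.438 with permutation p = 6e-05). This pair was positive in 7 of 7 series, between 0.174 and 0.700, and had r = 0.372 without the 2 lines farthest in *lin-65*. After regression on series and scores it had r = 0.454 (adjusted p = 0.00178 for *lin-65*, where 7.66% of genes passed, and 0.000405 for *met-2*, where 26.1% did). QX490, with the highest *lin-65* at 28.4 CPM, had 40 CPM of *met-2*, and QX564, with the lowest at 13.9 CPM, had 26.2 CPM. QX531, with the next lowest *lin-65* at 14.1 CPM, had 30.5 CPM of *met-2*, above its median of 29.6 CPM.

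*dve-1* and *lin-65* were opposed (r = -0.408, permutation p = 0.00012, adjusted p = 0.000554 for *dve-1* and 0.00149 for *lin-65*, Spearman's rho = -0.392 with permutation p = 0.00023, and r = -0.365 without the 2 lines farthest in *dve-1*), positive in only 1 of 7 series. QX564 had both the highest *dve-1*, 98.3 CPM, and the lowest *lin-65*, 13.9 CPM. *ubl-5* and *met-2* were opposed likewise (r = -0.392, permutation p = 0.00027, adjusted p = 0.00528 for *ubl-5* and 0.000681 for *met-2*, Spearman's rho = -0.318 with permutation p = 0.00301, and r = -0.314 without the 2 lines farthest in *ubl-5*). After regression on series and scores neither passed, with r = -0.275 for *dve-1* and *lin-65* (adjusted p = 0.0764 and 0.125) and -0.247 for *ubl-5* and *met-2* (adjusted p = 0.133 and 0.0892). *ubl-5* and *dve-1*, whose proteins act in a complex, had r = -0.241 (permutation p = 0.0259, adjusted p = 0.1 for *ubl-5* and 0.0529 for *dve-1*, Spearman's rho = -0.268 with permutation p = 0.013, and r = -0.255 without the 2 lines farthest in *dve-1*) and did not pass. *atfs-1* passed in both directions with no other regulator.

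**Figure D5:**
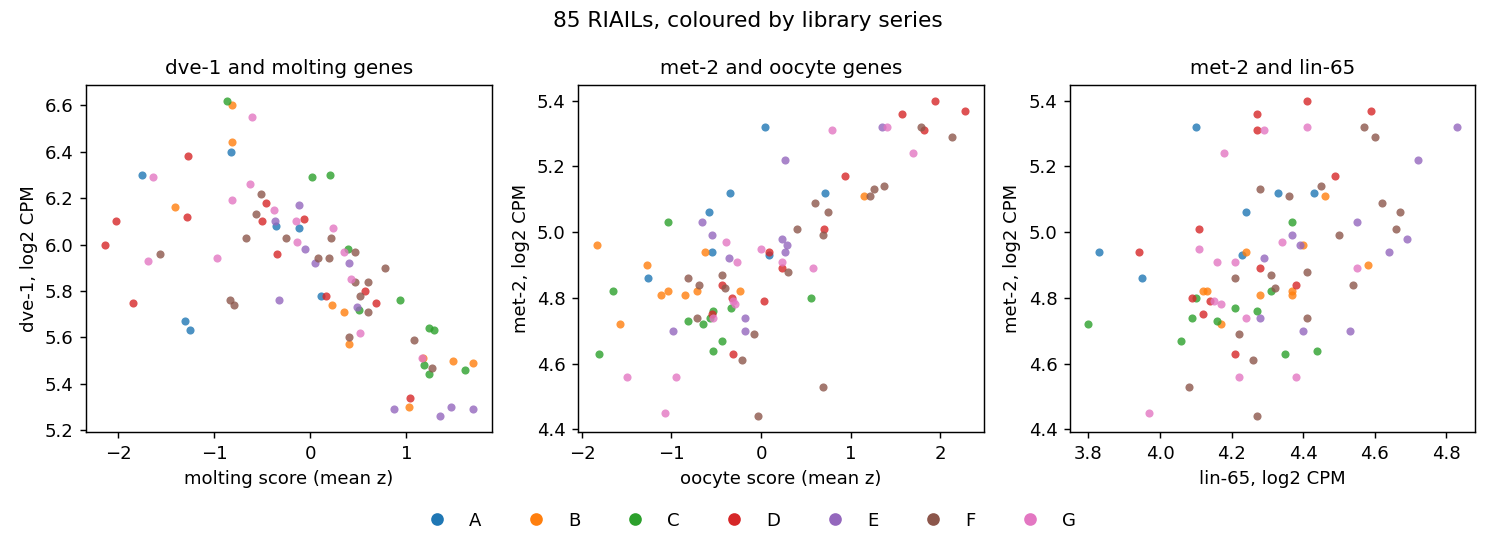
*dve-1* against the molting score, *met-2* against the oocyte score and *met-2* against *lin-65* over 85 RIAILs (genes in log2 CPM, scores as mean z), 1 point per line coloured by library series. *dve-1* declines with the molting score (r = -0.677), and *met-2* climbs with the oocyte score (r = 0.711) and with *lin-65* (r = 0.416).

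The 5 protein-coding genes closest to each regulator over the 85 RIAILs, by Pearson's r among genes averaging 3 or more log2 CPM, are given as a description. For *met-2* they were *smc-4* (r = 0.916), a condensin subunit, *isw-1* (0.906), a chromatin remodeller, the deubiquitinase gene *usp-48* (0.893), *glp-1* (0.891), the Notch receptor that keeps germline stem cells dividing, and *lex-1* (0.877). For *dve-1* they were *Y38F1A.8* (0.929), *sem-2* (0.909), a SoxC transcription factor, *rei-2* (0.899), *slc-17.8* (0.896) and *ptr-3* (0.892), a patched-related gene. Both regulators thus had neighbours at r of 0.877 or more. These values remained at 0.753 or more after regression on series and scores.

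For *lin-65* the closest genes were the nucleoporin genes *npp-9* (0.700), *npp-4* (0.699) and *npp-8* (0.698), *swsn-2.2* (0.699), a SWI/SNF subunit, and *disl-2* (0.694). Those of *ubl-5* were *R07E4.3* (0.638), *ndub-3* (0.635), a subunit gene of respiratory complex I, *R04F11.2* (0.632), *ZK512.4* (0.629) and *rpl-37* (0.613), a ribosomal protein gene. *atfs-1* had *adss-1* (0.622), an enzyme gene of AMP synthesis, *F39G3.3* (0.615), *nipi-3* (0.614), a Tribbles-like kinase gene, *F15D3.6* (0.613) and *nac-3* (0.597). For *haf-1* they were *gad-3* (0.607), the kinase gene *prk-1* (0.596), *bet-2* (0.591), a bromodomain gene, *F48E8.3* (0.577) and *usp-33* (0.576). After regression on series and scores *nipi-3* had the highest r with *atfs-1* of its 5 neighbours (0.639), while *adss-1* had 0.342.

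Beyond the 6, a list of 12 further genes that act on the response had 0 called between CB4856 and N2, where 16.1% of genes were, and 2 related to *hsp-6*, a share near the 14.1% of all genes. *clpp-1*, the protease upstream of HAF-1, was positive (r = 0.428, adjusted p = 0.00139) and also related to *hsp-60* (r = 0.422, adjusted p = 0.00442), and *pmk-3*, a p38 kinase gene, was negative (r = -0.312, adjusted p = 0.0331). On regression on series and scores these calls were lost, with r = 0.291 for *clpp-1* and *hsp-6* (adjusted p = 0.0501), 0.258 for *clpp-1* and *hsp-60* (adjusted p = 0.191) and -0.149 for *pmk-3* and *hsp-6* (adjusted p = 0.355). The histone demethylase gene *jmjd-1.2* then was the one related to *hsp-6* (r = 0.4, adjusted p = 0.00417). *haf-1* and *clpp-1* had r = -0.124 (adjusted p = 0.378) and did not pass. With *met-2*, 5 of the 12 passed as positive and 3 as negative, where 29.4% and 29.6% of all genes did. Another histone demethylase gene, *jmjd-3.1*, was among the negative ones (r = -0.296, adjusted p = 0.0119). With *lin-65*, 4 passed as positive, where 13.8% of all genes did, and 0 as negative. Among the positive ones, *jmjd-1.2* was related to *met-2* (r = 0.8, adjusted p = 4.77e-05) and *lin-65* (r = 0.471, adjusted p = 0.000293). So was *hda-1*, a histone deacetylase gene, to *lin-65* (r = 0.575, adjusted p = 0.000293) and *met-2* (r = 0.466, adjusted p = 0.000125). After regression 3 of these 4 relations passed, the exception being *hda-1* with *met-2* (r = 0.191, adjusted p = 0.199). The median r of this list with *hsp-6* was -0.036, against 0.002 over all genes.

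Of 7 genes around H3K9 methylation, 5 were positively correlated with *lin-65*, where 13.8% of all genes were, with a median r of 0.382 against -0.007 over all genes. With *met-2*, 4 were positively correlated, as were 29.4% of all genes, and 2 negatively, as were 29.6%. *lin-61*, which encodes a reader of methylated H3K9, had r = 0.433 with *lin-65* (adjusted p = 0.000888) and 0.675 with *met-2* (adjusted p = 4.77e-05). *arle-14*, a partner of MET-2, had r = 0.423 with *lin-65* (adjusted p = 0.00114) and 0.598 with *met-2* (adjusted p = 4.77e-05), whereas the HP1 gene *hpl-1* was negative with *met-2* (r = -0.553, adjusted p = 4.77e-05). With *hsp-6*, 0 of 7 passed, where 14.1% of genes did. After regression on series and scores 0 of 7 passed with *lin-65*, where 7.66% of genes did, and 2 of 7 with *met-2*, near the 26.1% of all genes, *lin-61* among them (r = 0.419, adjusted p = 0.00125). Between the strains 2 of the 7 were lower in CB4856, where 7.28% of all genes were. The oocyte score averaged -0.21 ± 0.53 in CB4856 and 1.1 ± 1.45 in N2 (SD, n = 6 and 4). Over the RIAILs 5 of the 7 were positively and 2 negatively correlated with that score, where 63% of all genes passed. The part of stage in the strain differences was not tested. *hpl-2*, another HP1 gene, averaged 23.8 ± 2.49 CPM in CB4856 and 39.2 ± 9.93 CPM in N2 (log2 fold change -0.66, SE 0.15, adjusted p = 0.0134), and *cec-4*, which holds methylated chromatin at the nuclear edge, 11.4 ± 1.95 CPM in CB4856 and 17.6 ± 2.29 CPM in N2 (log2 fold change -0.57, SE 0.15, adjusted p = 0.0241, SD with n = 6 and 4).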

How the data were processed

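Reads from a BGISEQ-500 instrument were inspected by the authors in FastQC, filtered for quality and aligned to WBcel235 with STAR (2.73a). They deposited raw counts per gene, 1 column per library. No source used here gives the counter, its strand setting or the annotation release. Of 46904 genes, 46817 were in the WBcel235 annotation used here.

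Counts were tested with edgeR 4.0.16 (R 4.3.3; TMM, filterByExpr, quasi-likelihood, Benjamini-Hochberg adjusted p under 0.05). CB4856 was compared with N2 on 10 libraries. For variation among RIAILs, equality of the 85 strain coefficients was tested against a residual spread taken from parental libraries. The library letters were compared over RIAILs alone. Alternatives used limma 3.58.1 (voom), DESeq2 1.42.0, other scalings, filters, blocks and covariates. Correlations used log2 CPM (prior count 2) and 100000 two-sided permutations for every gene (numpy 2.4.6). All 6 regulators passed every low-count filter. Stage scores are mean z scores over 18 molting, 19 sperm and 16 oocyte genes. Scripts were tested on simulated data. For CB4856 against N2, 45% of genes changed 2-fold and 90% of those changed 4-fold were recovered (15728 genes), and 89% of genes with a true r of 0.5 and 20% with 0.3 (5000 genes).

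Named genes were the 6 regulators, *hsp-6*, *hsp-60*, genes of the lists named, the 5 closest genes of each regulator and genes overlapping one. The regulators and lists were chosen with earlier results of these data known. The titles number 4 CB4856 and 4 N2 libraries as batches 1 to 4, and on that ground the numbers were taken to pair them. The deviations of same-numbered libraries from their strain means had r = 0.643, 0.176, 0.084 and -0.463. Libraries with different numbers had r from -0.625 to 0.571, so these values do not show that the numbers mark pairs. Batch 1 stood in series C for CB4856 and B for N2, and batch 2 in series E and D.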

Additional observations from a re-analysis of the deposited data

Results flagged for a closer look

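Of 16 groups of 4 to 10 libraries examined for a library far from the rest, 1 was picked out, and chance picks about 1 in 20. In N2, *met-2* had 27.5 CPM in replicate 1, against 38.1 to 40.1 CPM in the other N2 libraries. The same library had an oocyte score of -1.06, against 1.67 to 2.10 in the other N2 libraries, and the part of stage in the low value was not tested. Without it the log2 fold change of *met-2* between CB4856 and N2 was -0.29 (adjusted p = 0.149), against -0.20 with it.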

How the results depend on the processing

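Of 54 counts of regulators called under an alternative, 48 stayed within 1.5 times the count given above and 6 rose, and of 324 values for single regulators 306 kept their sign and side of the threshold. Leaving out each parental library gave 0 to 1 regulators called between CB4856 and N2, with 1570 to 4604 genes called in all, and 0 for variation among RIAILs, with 706 to 1930 genes called. Both highest counts came without N2 replicate 1, against 2525 and 941 with all libraries, and that is where *haf-1* was called. With the replicate block by batch number, on 8 libraries, 0 regulators were called among 1652 genes, against 0 among 1566 without the block on the same libraries, and the block changed no call of a regulator. With the library letter as a block 481 genes were called, none a regulator, *atfs-1* at -0.03 and *ubl-5* at 0.06 on the log2 scale with turned signs, and with the first principal component as a covariate 3866 genes. With the 3 scores as covariates 4 regulators were called by library series, against 2, and with DESeq2 *met-2* passed as well. With *hsp-6*, 2 regulators were called on regression on the 3 scores (3716 genes, against 2410) and 2 on regression on series and scores, and *lin-65* turned sign when centred within series (-0.037). With *hsp-60*, 1 regulator was called on regression on the scores (2165 genes, against 1360) and 1 on series and scores (270 genes), and centring within series left 423 genes and leaving out the farthest 2 lines 666. Signs turned for *ubl-5* with *hsp-60* (-0.014 for rho, -0.002 on the scores, -0.051 on series and scores, -0.054 without the 2 farthest lines), for *met-2* on series and scores (0.016) and for *lin-65* centred within series (-0.148, against 0.146), none of them called. The cause of these changes was not tested. Depth limits *haf-1* most, and a true r of 0.3 would often be missed over 85 lines.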
